A study of Homo sapiens with 8 samples.

Results

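Small nucleolar RNA host genes are transcribed units whose introns contain the short RNAs that guide chemical modification of ribosomal RNA. The 10 long non-coding host genes SNHG1, SNHG3, SNHG5, SNHG6, SNHG7, SNHG8, SNHG12, SNHG15, SNHG16 and GAS5 were taken by symbol out of the 27945 genes of the deposited expression table. The rule uses no measured value, but the list was drawn up with earlier results of these data known. The table lists 57 transcripts of these genes, and every gene was represented by its most abundant transcript over the 8 libraries. All 10 were among the 13789 genes that reached 0.5 FPKM in 2 or more libraries and were tested. FPKM is the number of fragments per kilobase of transcript, scaled to the reads of the library. The names were checked against position. The spans of the 10 genes contain 34 rows for small nucleolar RNAs on the same strand, between 1 and 11 in each gene.

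A host gene yields 2 kinds of product from a single precursor. Splicing joins the exons, and the excised intron is trimmed back to the small nucleolar RNA, which is held by a set of core proteins. Box C/D RNAs (SNORD) guide 2'-O-methylation and bind fibrillarin, NOP56 and NOP58. H/ACA RNAs (SNORA) guide pseudouridylation with dyskerin, NHP2, NOP10 and GAR1. Many hosts start with a C followed by a run of pyrimidines, the terminal oligopyrimidine start that they share with genes for ribosomal proteins. The spliced exons of GAS5 and of several other non-coding hosts carry short reading frames, and when ribosomes translate these the RNA is removed by nonsense-mediated decay.

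RNA was from EA.hy926, an immortal hybrid of umbilical vein endothelium and a lung carcinoma line. The 3 groups were control cells (n = 2), clonal lines from which the enhancer E2 had been deleted with CRISPR/Cas9 (ΔE2, n = 3), and clonal lines with a deletion of SE12313-b (ΔSE12313-b, n = 3), an element of the same super-enhancer that was inactive in vitro. Each deletion line grew from single edited cells, so that in comparisons with the control the deletion and single-cell cloning cannot be told apart, and nothing states whether the control RNA came from separate cultures. Ribosomal RNA was removed from total RNA, and single-end reads were sequenced. The comparisons of both deletions share the same control libraries.

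The control libraries held 12067558 and 12696176 reads, the ΔE2 libraries 13616468 to 19101152 and the ΔSE12313-b libraries 14814166 to 16085524. A host gene rested on 76 reads (SNHG15 in a control library) to 2882 reads (SNHG16 in a ΔE2 library). The transcripts that represent the genes took 7801359 and 8150487 reads in the control, 9979509 to 13371431 in ΔE2 and 11145390 to 12586444 in ΔSE12313-b. This is a larger share of the library in every clone, and FPKM is scaled to all reads of the library. Over all genes tested, the median log2 change against the control was 0.14 (ΔE2) and 0.27 (ΔSE12313-b), and it was -0.11 between the deletions. Changes are therefore also given relative to these medians where they bear on a call. The part of the unequal shares in these medians was not tested. Of 10 endothelial marker genes, 8 had a mean FPKM of at least 0.5 in the control, among 6 epithelial markers 3 did, and none of 3 leukocyte markers did. The summed FPKM of the epithelial markers was 361 to 363 in the control, 1084 to 1210 in ΔE2 and 811 to 1069 in ΔSE12313-b, that of the endothelial markers was 371 to 372, 390 to 570.2 and 372 to 533, and that of 3 smooth muscle markers was 5.07 to 6.52, 0.566 to 1.86 and 0.894 to 1.53. The epithelial sum was almost wholly KRT7, KRT8 and KRT18. CDH1 was 0 in every library, and EPCAM was 0.554 and 0.243 FPKM in the control and at most 0.215 FPKM in the clones. The endothelial markers did not move together. PECAM1 was at most 6.03 FPKM in the control and at least 10.2 in the clones, whereas VWF was at least 1.83 and at most 0.831. The smooth muscle sum of the control was mostly ACTA2. The part of these markers in the results on host genes was not tested. In bulk RNA, fewer cells of a kind and less RNA per cell cannot be told apart.

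The starts of the host genes are shown because this is the letter pattern the class is known for. Each line below is GRCh37 reference sequence read 5′ to 3′ on the strand of the gene, from 10 bases before the annotated start to 19 bases after it, and the capitals mark the longest unbroken run of C and T within the first 20 transcribed bases.
GAS5, minus strand, chr1:173837110-173837139: gcaccatactgTCTTTTCgaggtaggagtc
SNHG8, plus strand, chr4:119199907-119199936: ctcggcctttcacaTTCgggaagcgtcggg
SNHG1, minus strand, chr11:62623338-62623367: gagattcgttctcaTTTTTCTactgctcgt
SNHG16, plus strand, chr17:74553836-74553865: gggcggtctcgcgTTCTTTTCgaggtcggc
SNHG5, minus strand, chr6:86388432-86388461: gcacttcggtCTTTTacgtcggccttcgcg
SNHG12, minus strand, chr1:28908366-28908395: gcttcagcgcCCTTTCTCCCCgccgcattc
The capitals need not begin at the first transcribed base, so they do not by themselves mark a terminal oligopyrimidine start. The starts of SNHG3, SNHG7 and SNHG15 were read but are not shown, and their longest runs are 6, 4 and 2 bases. Of the 9 starts read, 5 began with C (55.6%), against 19.4% of all genes tested. A C followed by pyrimidines in a run of at least 5 was present at 2 starts (22.2%), those of SNHG5 and SNHG12, against 3.21% of all genes tested. A run of at least 6 anywhere in the first 20 bases was present at 5 of 9 (55.6%), against 17.7% of all genes. These shares describe annotated starts, which may differ from the starts used in EA.hy926.

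GAS5, whose start above holds a run of 7 pyrimidines beginning at its second base, also holds 11 of the 34 small nucleolar RNAs. The 4 sequences below are GRCh37 reference, minus strand, and are shown because their host fell while their own reads did not all follow it. Capitals mark the C box (TGATGA) and the D box (CTGA) of the first 3, and the terminal ACA of SNORA103.
SNORD44, chr1:173835106-173835166: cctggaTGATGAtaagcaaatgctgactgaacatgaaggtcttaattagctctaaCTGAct
SNORD76, chr1:173835773-173835853: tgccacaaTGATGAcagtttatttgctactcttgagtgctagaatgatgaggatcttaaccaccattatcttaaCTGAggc
SNORD80, chr1:173833971-173834041: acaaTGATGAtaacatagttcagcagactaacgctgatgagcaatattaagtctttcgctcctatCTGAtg
SNORA103, chr1:173835343-173835428: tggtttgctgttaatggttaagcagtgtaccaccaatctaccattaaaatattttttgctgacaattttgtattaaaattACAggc
Both boxes, spelled exactly so and near their ends, were found in 15 of the 25 SNORD rows inside the host genes (60%) and in 190 of all 309 SNORD rows (61.5%). None of the 170 SNORA rows had both.

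In the control, the 10 host genes ranged from 308 FPKM (GAS5) to 8.57 FPKM (SNHG15). The order was GAS5, SNHG5, SNHG8, SNHG6, SNHG1, SNHG16, SNHG7, SNHG3, SNHG12 and SNHG15, and both control libraries of each gene were separate from those of its neighbours. In the clones GAS5 was no longer the first. SNHG5 led with a mean of 180.0 FPKM in ΔE2 and 208 FPKM in ΔSE12313-b, GAS5 came next, and SNHG16 came next to it. Below these, several neighbours overlapped. In ΔE2 the libraries of SNHG8 overlapped those of SNHG1 above it and SNHG7 below it, and in ΔSE12313-b those of SNHG1 overlapped SNHG8 above it and SNHG6 below it. GAS5 made up 39.5% to 41.0% of the summed FPKM of the 10 genes in the control and 16.4% to 18.7% in the 6 clones.

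The host genes did not move as a block. Against the control, 3 of 10 were lower in ΔE2 (GAS5, SNHG6 and SNHG8), 3 were higher (SNHG7, SNHG15 and SNHG16) and 4 did not pass the test, where 54.1% of all genes tested were called, 19.4% of them lower and 34.7% higher out of all tested (limma, adjusted p under 0.05 by Benjamini-Hochberg). In ΔSE12313-b, 5 were lower (GAS5, SNHG1, SNHG3, SNHG6 and SNHG8), 2 were higher (SNHG7 and SNHG16) and 3 did not pass, where 59.4% of all genes were called, 16.4% lower and 43% higher. The share of hosts called in either direction, 60% and 70%, was close to these backgrounds. For the 10 hosts the median log2 change was -0.01 (ΔE2) and -0.31 (ΔSE12313-b). With each library centred on the median of all genes these medians became -0.17 and -0.60, and the numbers of higher hosts fell to 1 and 1. In each deletion 7 of the 10 had no overlap between clones and controls, where 73.5% and 75.3% of all genes tested had none. Counted as DEGs, with at least a 2-fold change, 0 hosts rose and 1 fell in ΔE2 (11.2% of all genes rose and 8.36% fell by that rule, 19.6% in all). In ΔSE12313-b 0 rose and 3 fell (14.7% and 7.83% of all genes, 22.6% in all).

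**Figure D1:**
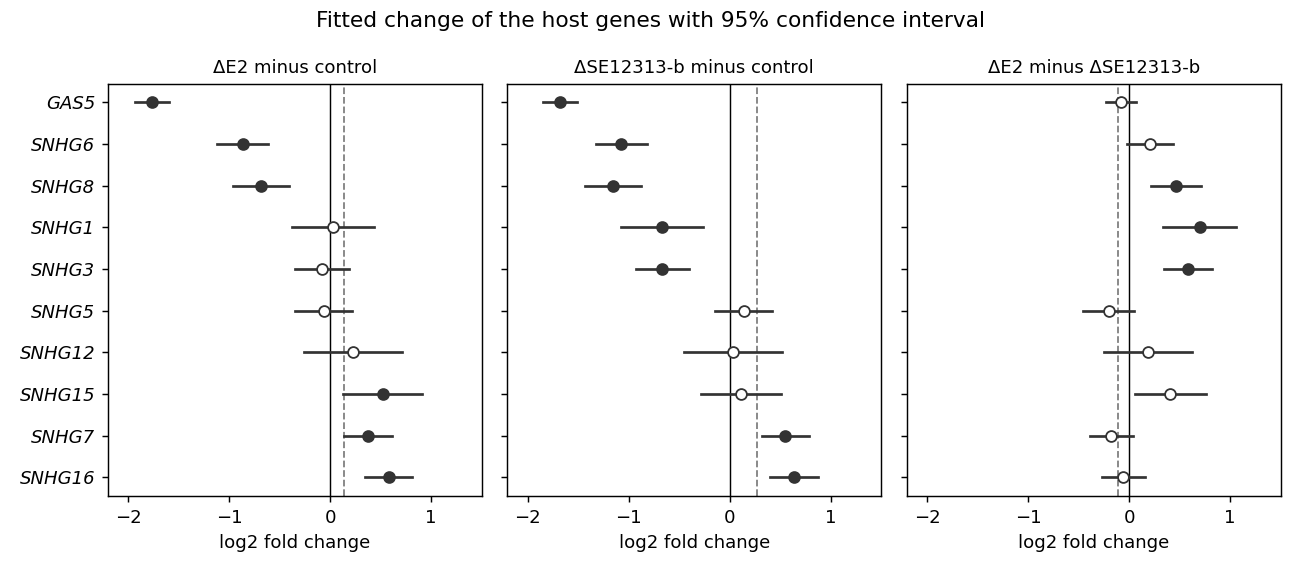
Fitted log2 fold change of each host gene with its 95% confidence interval in the 3 comparisons, filled where the adjusted p was under 0.05. The dashed line is the median of all genes tested (0.14, 0.27 and -0.11), and GAS5, SNHG6 and SNHG8 lie to the left of it in both comparisons with the control.

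GAS5 (growth arrest specific 5; chromosome 1, 173833037 to 173837129, minus strand), an RNA named for its accumulation in cells that stop growing, showed the widest change among the hosts. Its level was 313 and 303 FPKM in the control libraries. It was 86.3, 92.8 and 93.3 FPKM in ΔE2 and 101, 95.4 and 91.5 FPKM in ΔSE12313-b. All 6 clones were far below both controls, and the groups of clones overlapped each other. The fall was 3.39-fold in ΔE2 (log2 change -1.76 ± 0.07, SE; limma adjusted p = 1.12e-06) and 3.21-fold in ΔSE12313-b (-1.68 ± 0.07; adjusted p = 1.33e-06). Relative to the median of all genes it was -1.90 and -1.95. Only 4.03% and 4.78% of the genes tested had a log2 change as low or lower. The 15 GAS5 transcripts of the table, 483 to 712 bases long and largely built of the same exons, changed by -1.78 to -1.70 (ΔE2) and -1.71 to -1.61 (ΔSE12313-b). The deletions differed by -0.08 (95% interval -0.23 to 0.07; adjusted p = 0.407), and the sign of this difference turned to 0.05 with each library centred.

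SNHG6, host of SNORD87 on chromosome 8, was the second of the hosts that fell in both deletions. It measured 47.6 FPKM in both control libraries, 28.1, 26.8 and 23.6 FPKM in ΔE2, and 20.9, 21.6 and 25.5 FPKM in ΔSE12313-b. No clone reached the controls. The log2 change was -0.86 ± 0.11 in ΔE2 (limma adjusted p = 0.000386) and -1.07 ± 0.11 in ΔSE12313-b (adjusted p = 0.0001), of which only the latter exceeds 2-fold. The 17 genes tested within 5 Mb of SNHG6 had median changes above that of all genes, by 0.19 and 0.22.

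SNHG8, host of SNORA24 (chromosome 4, 119199917 to 119200978, plus strand), is the shortest of the transcripts used, with 271 bases, and rested on 124 to 244 reads per library. It measured 67.1 and 74.6 FPKM in the control, 44.8, 39.2 and 48.2 FPKM in ΔE2, and 28.4, 35.4 and 31.8 FPKM in ΔSE12313-b. The 3 groups did not overlap, with the control highest and ΔSE12313-b lowest. SNHG8 fell by 0.69 ± 0.12 on the log2 scale in ΔE2 (limma adjusted p = 0.00199) and by 1.15 ± 0.12 in ΔSE12313-b (adjusted p = 0.000113). Its neighbourhood moved too. The 23 genes tested within 5 Mb had median changes relative to all genes of -0.30 (ΔE2) and -0.80 (ΔSE12313-b), and the part of the region in the change of SNHG8 was not tested.

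SNHG1 and SNHG3 separated the deletions. SNHG1, which holds 8 small nucleolar RNAs including SNORD25 to SNORD31 (chromosome 11, 62619450 to 62623357, minus strand), measured 42.85 and 45.1 FPKM in the control, 46.9, 39.8 and 48.8 FPKM in ΔE2, and 30.05, 32.8 and 21.4 FPKM in ΔSE12313-b. The ΔE2 clones surrounded the controls, and all ΔSE12313-b clones lay below both other groups. Against the control the log2 difference was 0.03 ± 0.18 in ΔE2 (limma adjusted p = 0.887; -0.12 with each library centred) and -0.67 ± 0.18 in ΔSE12313-b (adjusted p = 0.012). The latter did not pass without control replicate 2 (adjusted p = 0.068).

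SNHG3, host of the H/ACA RNA SNORA73B (chromosome 1, 28832455 to 28837404, plus strand), measured 14.3 and 14.5 FPKM in the control, 14.1, 13.1 and 13.7 FPKM in ΔE2, and 9.18, 10.3 and 7.83 FPKM in ΔSE12313-b. The ΔE2 clones lay just under the controls and the ΔSE12313-b clones under both. The log2 difference was -0.08 ± 0.11 in ΔE2 (limma adjusted p = 0.59) and -0.67 ± 0.11 in ΔSE12313-b (adjusted p = 0.0015). SNHG3 lies entirely, over 4950 bases, within transcripts listed for RCC1 on the same strand, so that reads of shared exons may have been counted for both. RCC1, the exchange factor of the GTPase Ran, rose in both deletions (1.19, limma adjusted p = 0.000145, and 1.31, adjusted p = 6.79e-05). SNHG3 passed the test, as lower, only in ΔSE12313-b.

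Tested directly, ΔE2 exceeded ΔSE12313-b in SNHG1 by 0.70 ± 0.16 (limma adjusted p = 0.0151), in SNHG3 by 0.59 ± 0.10 (adjusted p = 0.00561) and in SNHG8 by 0.47 ± 0.11 (adjusted p = 0.0166). These were 3 of 10 hosts, where 6.69% of all genes tested were higher in ΔE2 and 19.3% lower, 26% in all. No host reached 2-fold in either direction, as 1.6% of all genes did upwards and 2.63% downwards (4.23% in all). None of the 10 passed the test as lower in ΔE2. There were 4, with SNHG15 as the other, that had no overlap between the deletions, where 40.8% of all genes tested had none. The calls for SNHG1 and SNHG8 lie near the threshold. Without ΔE2 replicate 1 the differences were 0.67 and 0.45 (limma adjusted p = 0.0516 and 0.053), without ΔE2 replicate 3 they were 0.64 and 0.40 (adjusted p = 0.0557 and 0.0579), and that of SNHG8 was 0.39 without ΔSE12313-b replicate 1 (adjusted p = 0.0539). The genes within 5 Mb differed between the deletions, relative to all genes, by 0.69 around SNHG8 and 0.27 around SNHG1, and by -0.06 around SNHG3. The part of these regions was not tested.

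SLC3A2, the heavy chain of an amino acid transporter, starts 127 bases from SNHG1 on the opposite strand. It fell in ΔSE12313-b (-0.88 ± 0.19, limma adjusted p = 0.00417) and was higher in ΔE2 than in ΔSE12313-b (0.58 ± 0.17, adjusted p = 0.0361), as SNHG1 was. Its change in ΔE2 against the control was -0.30 ± 0.19 (adjusted p = 0.208). ZBTB37 starts 91 bases from GAS5 in the same arrangement. There the neighbour did not pass in either deletion (-0.17, adjusted p = 0.561, and -0.08, adjusted p = 0.793), beside a more than 3-fold fall of GAS5. Both neighbours were looked up after the values of the hosts had been seen.

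SNHG16, host of SNORD1A, SNORD1B and SNORD1C (chromosome 17, 74553846 to 74561430, plus strand), was the host that rose most in both deletions. It measured 42.1 and 41.1 FPKM in the control, 62.0, 55.8 and 69.7 FPKM in ΔE2, and 68.8, 65.0 and 60.6 FPKM in ΔSE12313-b. All clones were above both controls. The log2 change was 0.58 ± 0.10 in ΔE2 (limma adjusted p = 0.00207) and 0.64 ± 0.10 in ΔSE12313-b (adjusted p = 0.00107), or 0.44 and 0.36 relative to all genes. With quantile normalization it did not pass in either deletion (0.24, adjusted p = 0.0897, and 0.13, adjusted p = 0.311).

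SNHG7, host of SNORA17A and SNORA17B (chromosome 9, 139619046 to 139622636, minus strand), measured 30.6 and 29.8 FPKM in the control, 43.1, 34.7 and 40.6 FPKM in ΔE2, and 46.9, 44.7 and 41.8 FPKM in ΔSE12313-b. All clones again exceeded the controls. The log2 change was 0.38 ± 0.10 in ΔE2 (limma adjusted p = 0.0151) and 0.55 ± 0.10 in ΔSE12313-b (adjusted p = 0.00214), but with each library centred it was 0.22 (adjusted p = 0.115) and 0.26 (adjusted p = 0.0639). The call in ΔE2 was also lost when either control library was left out (limma adjusted p up to 0.0898). The transcripts of SNHG7 were unequal. The longest, of 2157 bases, measured 12.2 FPKM in both controls, 20.7, 14.4 and 13.9 FPKM in ΔE2, and 14.6, 12.3 and 14.2 FPKM in ΔSE12313-b, and it did not pass in either deletion (0.39, adjusted p = 0.083, and 0.16, adjusted p = 0.433). SNHG7 shares 125 bases with FAM69B on the opposite strand.

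SNHG15, host of SNORA9 (chromosome 7, 45022622 to 45026295, minus strand), was the lowest of the hosts in the control, at 7.77 and 9.36 FPKM. It measured 13.5, 10.5 and 13.2 FPKM in ΔE2 and 10.1, 10.3 and 7.60 FPKM in ΔSE12313-b. The ΔE2 clones lay above all other libraries, while the ΔSE12313-b clones overlapped the controls. The log2 change was 0.52 ± 0.17 in ΔE2 (limma adjusted p = 0.0322) and 0.11 ± 0.17 in ΔSE12313-b (adjusted p = 0.59; -0.18 with each library centred). The call in ΔE2 was lost when either control library (adjusted p = 0.197 and 0.0501) or ΔE2 replicate 1 or 3 (0.0893 and 0.0902) was left out, with each library centred (0.112), with quantile normalization (0.149) and in limma's voom on recovered reads (0.0501). The difference between the deletions was 0.41 ± 0.15 (adjusted p = 0.0857), and it passed with each library centred (0.54, adjusted p = 0.0426).

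SNHG5 and SNHG12 passed the test in no comparison. SNHG5, host of SNORD50A and SNORD50B (chromosome 6, 86386725 to 86388451, minus strand), measured 185 and 189.7 FPKM in the control, 173, 198 and 169 FPKM in ΔE2, and 239, 182 and 202 FPKM in ΔSE12313-b. Its groups overlapped throughout. The log2 differences from the control were -0.06 (95% interval -0.34 to 0.22; limma adjusted p = 0.697) and 0.14 (-0.14 to 0.42; adjusted p = 0.355), and the second turned to -0.15 with each library centred. With quantile normalization SNHG5 passed as lower in both deletions (-0.48, adjusted p = 0.0111, and -0.38, adjusted p = 0.0287). Its neighbours within 5 Mb had median changes of 0.20 and -0.50 relative to all genes.

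SNHG12 (chromosome 1, 28905050 to 28908385, minus strand) holds 4 small nucleolar RNAs, among them SNORA16A and SNORD99. It measured 12.8 and 11.7 FPKM in the control, 15.9, 11.7 and 15.7 FPKM in ΔE2, and 14.8, 14.1 and 9.46 FPKM in ΔSE12313-b. The groups overlapped. The intervals of its log2 differences from the control were wide, -0.26 to 0.71 in ΔE2 (limma adjusted p = 0.394) and -0.45 to 0.52 in ΔSE12313-b (adjusted p = 0.887), and its estimate of 0.04 in ΔSE12313-b turned to -0.25 with each library centred.

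The reads of the small nucleolar RNAs were then set beside their hosts. RNA columns and library selection discriminate against such short RNAs, and most rows held few reads, so these counts describe what was captured. All 34 hosted rows passed the minimum FPKM, as did 374 of all 553 small nucleolar RNA rows, but short rows pass on very few reads. SNORD1A passed with 1 and 0 reads in the control, 2, 1 and 0 in ΔE2 and 0 in every ΔSE12313-b library. In ΔE2 3 were higher, 1 was lower and 30 did not pass the test, and in ΔSE12313-b 2 were higher, 3 lower and 29 did not pass. Of all 374 small nucleolar RNA rows tested, 6.15% were higher and 9.36% lower in ΔE2, and 5.61% and 16.8% in ΔSE12313-b. These shares are below those of all genes (54.1% and 59.4% called), but most rows held few reads. Against the control, SE ran from 0.17 (SNORD80) to 1.44 (SNORD1B) among the 34, beside 0.07 (GAS5) to 0.21 (SNHG12) among the hosts. The low share called does therefore not show that these RNAs were stable. For the 34 the median log2 change was 0.27 (ΔE2) and -0.19 (ΔSE12313-b). Over the 374 rows the medians were -0.05 and -0.55. The rows listed for small nucleolar RNAs took 2899 and 2921 RPM (reads of a row, scaled to the same total for every library) in the control, 2088 to 2120 in ΔE2 and 1538 to 1924 in ΔSE12313-b.

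Inside GAS5, the RNA with the most reads over the 8 libraries, SNORA103, had 64 and 46 reads in the control, 21, 20 and 16 in ΔE2, and 20, 23 and 12 in ΔSE12313-b. All clones were below the controls although they were sequenced more deeply, and in each of the 6 clones SNORD47 had more reads than SNORA103 (16 and 22 in the control, 42, 26 and 23 in ΔE2, 28, 29 and 13 in ΔSE12313-b). Its log2 change was -1.93 ± 0.27 in ΔE2 (limma adjusted p = 0.000636) and -1.94 ± 0.27 in ΔSE12313-b (adjusted p = 0.000491), close to that of the host. In the Gencode annotation SNORA103 lies under an exon of 82 of 91 GAS5 transcripts, whereas each of the other 10 lies under an exon of 1 to 20 of them. Reads of spliced GAS5 and of SNORA103 can therefore not be told apart.

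Of the other 10 small nucleolar RNAs inside GAS5, none fell by the test in either deletion. Reads of these rows may also come from unspliced GAS5 or from GAS5 transcripts with an exon there. They cannot be told apart from the trimmed RNAs, so these values do not show that the trimmed RNAs were kept. For SNORD77 and SNORD78 the 95% intervals were wide enough to include the change of GAS5 itself. They were -4.33 to 0.89 (ΔE2) and -2.44 to 2.78 (ΔSE12313-b) for SNORD77, and -1.87 to 0.39 (ΔSE12313-b) for SNORD78. SNORD80, with 9 and 7 reads in the control, 24, 17 and 12 in ΔE2 and 13, 12 and 16 in ΔSE12313-b, was higher in ΔE2 (0.68 ± 0.17, limma adjusted p = 0.0113) and did not pass in ΔSE12313-b (0.44, adjusted p = 0.0585). SNORD74 was higher in ΔSE12313-b (1.06 ± 0.34, adjusted p = 0.028) and did not pass in ΔE2 (0.86, adjusted p = 0.0664). SNORD76 had 29 and 14 reads in the control, 39, 16 and 25 in ΔE2 and 16, 24 and 22 in ΔSE12313-b, and SNORD44 had 15 and 7, then 15, 12 and 20, then 12, 13 and 14. Neither separated the groups.

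Summed over these 10 RNAs, the libraries held 7.80 and 6.80 RPM in the control, 8.95, 8.0 and 8.81 in ΔE2, and 6.65, 9.72 and 6.17 in ΔSE12313-b. The ΔE2 clones were slightly above the controls and the ΔSE12313-b clones lay around them. The ratio of this sum to the FPKM of GAS5 was 0.0237 ± 0.00174 (SD, n = 2) in the control, 0.0948 ± 0.00877 (n = 3) in ΔE2 and 0.0784 ± 0.0203 (n = 3) in ΔSE12313-b. The ratio contains the fall of GAS5 itself and is given without a test. The sum did not separate the 6 clones from the 2 controls (two-sided exact permutation p = 0.5, where 28 arrangements allow no p below 0.0714). SNORA103 was left out of this sum after the values had been seen. With it the log2 difference of the sum against the control went from 0.24 to -0.26 (ΔE2) and from 0.02 to -0.46 (ΔSE12313-b).

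**Figure D2:**
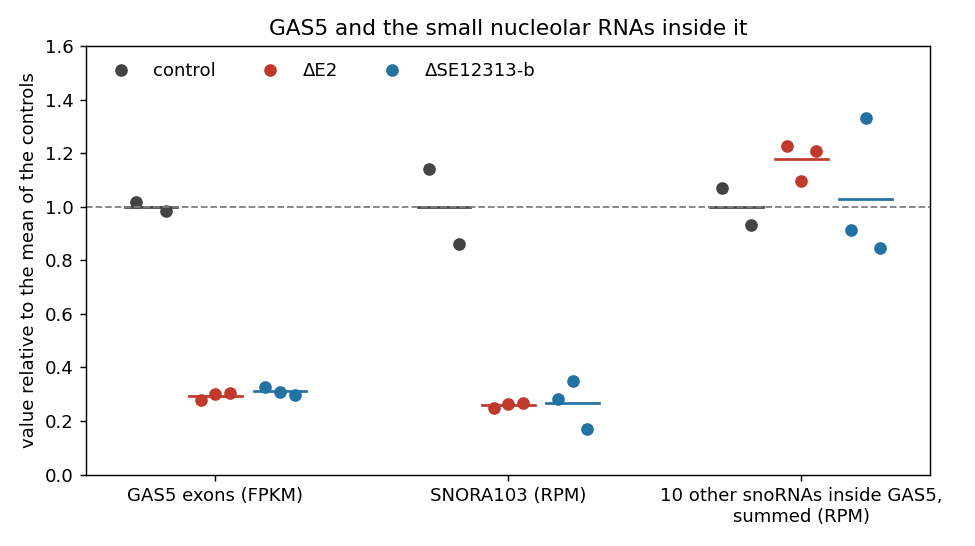
GAS5 exons (FPKM), SNORA103 (RPM) and the sum of the 10 other small nucleolar RNAs inside GAS5 (RPM), each divided by the mean of the 2 controls, 1 point per library with a line at the group mean. GAS5 and SNORA103 lie far below 1 in all clones, and the sum of the others lies on both sides of 1, from 6.17 to 9.72 RPM.

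In the other hosts the most abundant RNA of each was followed. SNORA73B, inside SNHG3, had 2396 and 1948 reads in the control, 3801, 2451 and 2519 in ΔE2, and 1286, 782 and 1788 in ΔSE12313-b. It fell in ΔSE12313-b (-1.16 ± 0.29, limma adjusted p = 0.00926), as SNHG3 did, and was higher in ΔE2 than in ΔSE12313-b (1.16 ± 0.26, adjusted p = 0.0149). Like SNHG3, SNORA73B also lies within transcripts listed for RCC1, which rose in ΔSE12313-b (1.31). The median change of all 374 small nucleolar RNA rows tested was -0.55 in that deletion. SNORA24, inside SNHG8, had 48 and 45 reads in the control, 122, 64 and 53 in ΔE2 and 41, 27 and 41 in ΔSE12313-b. It fell by 0.71 ± 0.24 in ΔSE12313-b (adjusted p = 0.0355) and was 0.27 ± 0.24 in ΔE2 (adjusted p = 0.38), where SNHG8 itself fell. SNORD26 in SNHG1, SNORA16A in SNHG12, SNORA17B in SNHG7, SNORD50B in SNHG5, SNORD87 in SNHG6, SNORA9 in SNHG15 and SNORD1C in SNHG16 did not pass in either deletion. Beyond the most abundant, SNORD31 in SNHG1, with 4 and 8 reads in the control and 15, 17 and 11 in ΔE2, was higher in ΔE2 (0.90, adjusted p = 0.0365). SNORD99 in SNHG12 passed as higher in both (adjusted p = 0.0292 and 0.0182), but on 1 read in each control library against 8, 2 and 4 reads in ΔE2 and 5, 5 and 3 in ΔSE12313-b.

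Genes of the same pathway were counted in the same fit, and their counts stand against all genes tested, of which 34.7% were higher and 19.4% lower in ΔE2, and 43% and 16.4% in ΔSE12313-b. Of 17 other long non-coding hosts tested, 3 were higher and 5 lower in ΔE2 (median log2 change 0.20), and 6 were higher and 5 lower in ΔSE12313-b (median 0.26). They ranged from -1.68 to 1.89 and from -2.09 to 1.87, while the 10 hosts ranged from -1.76 to 0.58 and from -1.68 to 0.64. ZFAS1, host of 3 box C/D RNAs of the SNORD12 family, fell by 1.68 and 2.09 on the log2 scale (limma adjusted p = 3.18e-06 and 1.02e-06), from 480.04 FPKM in the control to 149.6 and 113 FPKM, and C6orf48 fell by 1.29 and 1.61 (adjusted p = 9.18e-05 and 2.33e-05). DANCR rose by 1.89 and 1.87 (adjusted p = 2.71e-06 and 2.61e-06), and SNHG26 rose by 1.32 and 1.07 (adjusted p = 0.0145 and 0.0306).

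Of 50 protein-coding hosts, 17 were higher and 20 lower in ΔE2 (median -0.16), and 19 were higher and 10 lower in ΔSE12313-b (median -0.00). NOP56 and RCC1 rose most, by 1.19 and 1.19 in ΔE2 and by 1.24 and 1.31 in ΔSE12313-b. The translation factor EIF4A2 (-1.04) and TPT1 (-0.98) fell most in ΔE2, and TAF1D (-1.40), a subunit of the factor that selects ribosomal RNA promoters, and RABGGTB (-1.06) fell most in ΔSE12313-b, all with limma adjusted p under the threshold. Of 19 proteins that bind or assemble small nucleolar RNAs, 15 were higher and 0 lower in ΔE2 (median 0.41), and 16 were higher and 2 lower in ΔSE12313-b (median 0.78), beside medians over all genes of 0.14 and 0.27 and shares called higher of 34.7% and 43%. NOP58, the partner of NOP56 on box C/D RNAs, rose by 1.13 and 1.15, while GAR1 (-0.44) and NAF1 (-0.66), both of the H/ACA branch, fell in ΔSE12313-b. Of 22 genes of nonsense-mediated decay, 10 were higher and 0 lower in ΔE2 (median 0.20) and 11 were higher and 0 lower in ΔSE12313-b (median 0.37), close to the medians of all genes. UPF2, a core decay factor, rose by 1.00 and 1.54, and MAGOHB, of the exon junction complex, by 1.17 and 1.21.

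As a description over libraries that share groups and controls, Pearson's r of log2(FPKM + 0.1) was 0.97 for SNHG1 with SNHG3, 0.93 for GAS5 with SNHG6, 0.90 for SNHG6 with SNHG8 and 0.93 for SNHG7 with SNHG16. It was -0.97 for SNHG6 with SNHG16, -0.92 for GAS5 with SNHG16 and -0.91 for SNHG6 with SNHG7. The 5 genes outside the 10 whose levels followed the mean profile of the hosts most closely were PPAN-P2RY11 (r = 0.985), PVT1 (0.985), SLC7A5 (0.984), SLC3A2 (0.980) and ZNF330 (0.980). These r values were picked as the highest among all genes tested, and the mean profile joins hosts that moved in opposite directions. SLC7A5 and SLC3A2 are the light and heavy chains of the same amino acid transporter, and SLC3A2 starts 127 bases from SNHG1.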

How the data were processed

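Total RNA of 8 EA.hy926 libraries was depleted of ribosomal RNA and sequenced. According to the paper's methods and the submitters' processing notes, reads were trimmed with Trim Galore 0.4.4 and mapped to GRCh37 with STAR 2.5.4b. The authors deposited 1 table of FPKM with a line per RefSeq transcript; how it was counted, its RefSeq release and its use of strand are not given in the sources used here. The paper's methods name a directional library kit and, for the authors' own calls, featureCounts with Gencode genes, which are not the transcripts of this table, and those counts were not used. The 42 transcripts with no gene symbol were left out.

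FPKM times transcript length gave whole reads (within 0.1 read) for 100% of the values checked. The check covered a subset of nonzero values, 36527 to 43097 per library. The read totals of the libraries were inferred from the FPKM values in the same step. The recovered reads served for depth, for small nucleolar RNAs and for an alternative. The printed 95% intervals come from the fit and measure the spread between libraries. Each symbol was represented by its transcript of highest mean FPKM. The 13789 genes that reached 0.5 FPKM in 2 or more libraries entered a limma fit (3.58.1, R 4.3.3) of log2(FPKM + 0.1) (3 groups, trend, two-sided, Benjamini-Hochberg over all genes). Fold changes are on that scale, which understates changes of low genes. P-values measure the spread between these libraries, which may be technical in the control. DEGs had an adjusted p under 0.05 and at least a 2-fold change. Exact permutation tests used SciPy 1.17.1. The code was checked on simulated data.

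All 10 hosts are named. From each related list the 2 genes with the largest rise and fall among those called are named, and from each host the small nucleolar RNA with most reads. SNORD44, SNORD74, SNORD76, SNORD77, SNORD78, SNORD80, SNORD31, SNORD99 and the neighbours SLC3A2 and ZBTB37 were added after their values were seen. The hosts and lists were chosen with earlier results of these data known. Small nucleolar RNAs were assigned by position. Sequences are from the GRCh37 primary assembly; SNHG6 is not among those read. Alternatives were other pseudocounts, filters, scalings, variance models, thresholds and transcripts, a replicate block, voom on recovered reads, and each library left out.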

Additional observations from a re-analysis of the deposited data

Results flagged for a closer look

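The tested difference between the 2 deletions exceeded the spread between libraries for 3 host genes, each higher in the ΔE2 clones. SNHG1 was 0.70 higher on the log2 scale, SNHG3 0.59 and SNHG8 0.47 (limma, adjusted p = 0.0151, 0.00561 and 0.0166). All 3 ΔE2 clones lay above all 3 ΔSE12313-b clones in each of them. Of all genes tested, 26% were called between the deletions and 40.8% had no overlap between them. The calls for SNHG1 and SNHG8 were lost without ΔE2 replicate 1 or without ΔE2 replicate 3, and that for SNHG8 also without ΔSE12313-b replicate 1. Relative to all genes, the genes within 5 Mb differed by 0.69 around SNHG8, 0.27 around SNHG1 and -0.06 around SNHG3. On the same scale SNHG8, SNHG1 and SNHG3 themselves differed by 0.58, 0.81 and 0.70. The part of these regions was not tested.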

How the results depend on the processing

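Depth limits SNHG8 (124 to 244 reads), SNHG12 and SNHG15 (76 to 228 reads) and the small nucleolar RNAs. GAS5, SNHG6 and SNHG8 in both deletions and SNHG3 in ΔSE12313-b stayed called as lower in all 20 alternatives.

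With each library centred, 1 host was higher and 2 fell at least 2-fold in ΔE2 (median -0.17), and 1 was higher in ΔSE12313-b (median -0.60). With quantile normalization 0 were higher, 5 lower (SNHG3 and SNHG5 besides the other 3) and 3 at least 2-fold lower in ΔE2 (median -0.32), and 0 were higher and 5 at least 2-fold lower in ΔSE12313-b (median -0.70). At 1.5-fold, 3 fell in ΔE2, 1 rose and 5 fell in ΔSE12313-b, and 2 were higher between the deletions. At an adjusted p under 0.01, 1 host was higher in ΔE2 and 1 between the deletions. The longest transcripts left 1 host higher in ΔSE12313-b and turned SNHG7 between the deletions to 0.23. Leaving out each library gave 1 to 3 higher hosts in ΔE2 (1 without either control) and 1 to 4 between the deletions (1 without ΔE2 replicate 1 or 3). The cause of these shifts was not tested.

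Signs turned only in differences that had not passed. Centred and quantile values were -0.12 and -0.30 for SNHG1 in ΔE2, -0.15 and -0.38 for SNHG5, -0.25 and -0.33 for SNHG12 and -0.18 and -0.22 for SNHG15 in ΔSE12313-b, and 0.051 and 0.059 for GAS5 and 0.074 and 0.10 for SNHG16 between the deletions, with -0.026 for SNHG12 in ΔE2 under quantile normalization. With each library left out, SNHG1 in ΔE2 ranged from -0.026 to 0.12, SNHG12 and SNHG15 in ΔSE12313-b from -0.081 to 0.24 and from -0.020 to 0.25, and SNHG12 and SNHG16 between the deletions from -0.014 to 0.33 and from -0.14 to 0.023.

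Libraries with the same replicate number did not deviate together (r from -0.08 to 0.11), so the numbers do not pair the samples. With the replicate number as a block, SNHG15 in ΔE2 did not pass (0.57, limma adjusted p = 0.0615, beside the losses given with its values), and no other host changed its call.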
